A study of Rattus norvegicus with 23 samples.

Results

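The cytosolic ribosomal proteins are the proteins that, with the ribosomal RNAs, form the small and the large subunit of the ribosome that translates nuclear-encoded mRNAs. Their genes were taken from the rat count table as protein-coding genes with an Rpl or Rps symbol, or named Rpsa, Rplp0, Rplp1, Rplp2 or Rack1, that reached a mean of at least 20 CPM (counts scaled to a common library size) over 23 libraries. The rule kept 73 of 79 genes with such a symbol, out of 30452 genes in the table, and these are called members here. By symbol alone, 33 members were assigned to the small subunit (Rack1, a scaffold protein bound to it, included) and 40 to the large subunit. A symbol does not show that the protein is part of the finished ribosome. All 73 entered the test among 14777 tested genes. The members were thus chosen by their mean level over all samples, and the rule used this level, not a difference between pH values or cell lines. A gene near 0 in one line could still enter through the other, as Rpl39l did with a mean of 54.9 CPM. Just inside the limit stood Rpl38 with a mean of 21.5 CPM and Rpl9 with 48.5 CPM, and just outside it Rpl31l4 with 18.9 CPM and Rps12l2 with 17.5 CPM. These Rpl38 and Rpl9 rows lie on another chromosome than the RefSeq gene of that symbol. The rows on the RefSeq chromosome, named Rpl38.3 (340 CPM) and Rpl9.2 (1315 CPM), do not match the rule and are not members.

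NRK-52E cells, an epithelial line, and NRK-49F cells, a fibroblast line, both from normal rat kidney, were held in serum-free medium for 24 h and then kept for 48 h at pH 7.4 (control) or at pH 6.0, set with hydrochloric acid. NRK-52E cells gave 6 libraries at each pH, and NRK-49F cells gave 6 libraries at pH 7.4 and 5 at pH 6.0. All libraries carry a sample group in their labels (1 and 3 for NRK-52E, 4 and 6 for NRK-49F), whose meaning the labels do not state, and both pH values occur in every sample group. The comparison asked which transcripts change when kidney cells meet an acidic medium. No label says that the libraries of a condition came from separate cultures, so the p-values measure the spread between these libraries.

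Ribosomal protein mRNAs are among the most abundant transcripts of growing cells. Most belong to the TOP (terminal oligopyrimidine) mRNAs, which begin with a cytosine followed by an unbroken run of pyrimidines. When the kinase complex mTORC1 is inactive, the protein LARP1 binds this 5′ end and holds the mRNA out of translation while keeping it stable, so the level of such an mRNA does not tell how much protein is made. A few ribosomal proteins have a second, related gene (a paralog such as Rpl22l1 or Rps27l) whose mRNA need not follow the first.

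To show what the members' starts look like, 30 bases around the RefSeq start site (20 before it and 10 from it on, build GRCr8) are given for members that the results below turn on, and for the partners of 2 of them. Capitals mark a run of at least 5 pyrimidines that holds the start base, which is base 21.
Rps9 (chr1:74430428-74430457, minus strand): cgcgatccggcggccacgTTTCTCTTTgtc
Rpl3 (chr7:113507981-113508010, minus strand): ctgcaccagcgcctgctcgaTCTCTatcgg
Rpl10a (chr20:6390513-6390542, plus strand): tgcgcgaaaccttctgCCTTCTTTTCCggt
Rpl4 (chr8:73566457-73566486, plus strand): agtgataagTTCTTCCTTTTCCTgtgggag
Rpl19 (chr10:83519044-83519073, plus strand): gagcccgcgaccagcaagCTCTTTCCTTTC
Rplp2 (chr1:205975901-205975930, plus strand): atcttcctttcgccgccggacgccgccgag
Rps27 (chr2:177964597-177964626, minus strand): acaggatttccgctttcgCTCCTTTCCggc
Rps27l (chr8:76443638-76443667, plus strand): ttatagtttattcatttgtcattatttgtg
Rpl22 (chr5:168117941-168117970, plus strand): cctgcgtagtgcgCCCCCCTCCCTTTCTgc
Rpl22l1 (chr2:113683176-113683205, plus strand): tgagcgctccgtggatatccggttccgagt
Rps27 and Rpl22 have such a run at the annotated start, and their paralogs Rps27l and Rpl22l1 do not. Of 53 members with an entry in the RefSeq table on the chromosome the count table names, 31 (58.5%) had a run of at least 5 pyrimidines at the start, against 4003 of 33469 entries (12.0%) in the whole table. The letters CTTTCC, searched on both strands within 25 bases on either side of the start, stood on the sense strand in 16 of the 53 (30.2%) and in 733 of all entries (2.19%). On the antisense strand they stood in 0 of the 53 and in 748 of all entries. These letters can lie within the runs, so the counts overlap. A member counted if any of its entries held the run or the letters, while the whole table was counted entry by entry. The units of both shares thus differ. Both are descriptions of the annotated starts, and the starts used in these cells were not measured.

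Libraries differed in how much of their counts the members took. The summed counts of the 73 members were 6.73% to 9.97% of all counts in NRK-52E cells at pH 7.4 and 6.98% to 8.64% at pH 6.0. For the NRK-49F libraries the values were 6.95% to 10.4% at pH 7.4 and 7.36% to 12.1% at pH 6.0. The means were 7.65% ± 1.19 (SD, n = 6) and 7.84% ± 0.714 (SD, n = 6) in the epithelial line, and 8.41% ± 1.29 (SD, n = 6) and 9.26% ± 1.92 (SD, n = 5) in the fibroblast line. The ranges of both pH values overlapped in each line.

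**Figure D1:**
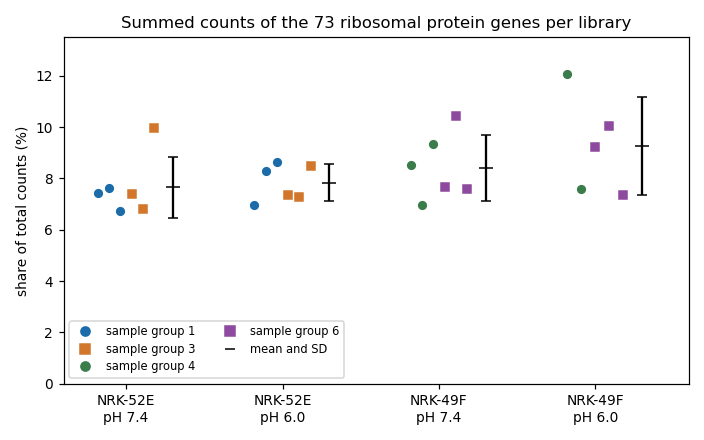
Share of the total counts (%, y axis) taken by the 73 members in each library, by cell line and pH; colour and shape give the sample group and the bar the mean with its SD. Library A035 (NRK-52E, pH 7.4) lies at 9.97% and A042 (NRK-49F, pH 6.0) at 12.1%, each the highest of its condition, and the pH values overlap in both lines.

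Within a condition the members moved together from library to library. In A035 all 73 members lay above the mean of their condition, and the same held for A038 (NRK-52E, pH 6.0) and A042. In A024 (NRK-52E, pH 6.0) and in A040, A043 and A056 (NRK-49F) 0 of 73 members lay above it. The members' median deviation reached 0.52 (log2) in A035 and 0.57 in A042, and -0.43 in A056. In A035 the summed level of 70 mitochondrial ribosomal protein genes was also the highest of its condition, at 3363 FPM (CPM on the TMM-scaled library size) against 2104 to 2533 FPM in the other 5 libraries. In A042 it was 5186 FPM, against 2963 to 4176 FPM in the other 4. Whether preparation of the libraries plays a part in these deviations was not tested.

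**Figure D2:**
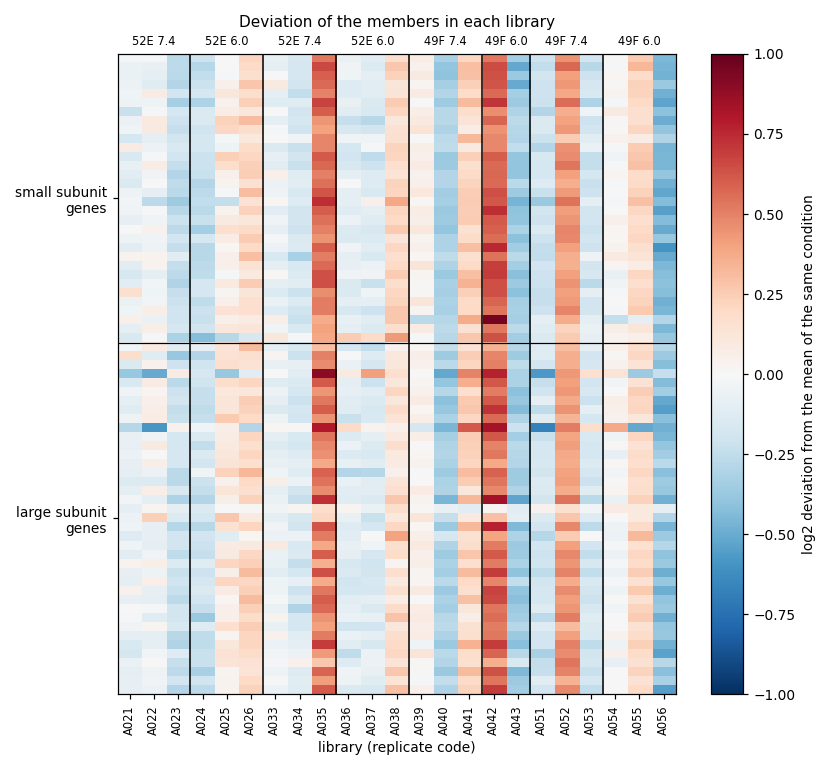
Log2 deviation (colour) of the members (rows, small subunit above the line) in each of 23 libraries (columns) from the mean of the same condition, with cell line and pH named above the columns; Rpl39l, near 0 in NRK-49F cells, and 1 other member are left out. Whole columns share a colour: A035, A042 and A052 are high and A043 and A056 are low across nearly all rows.

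At pH 6.0 few members passed the test in either line, and most of their changes were small. In NRK-52E cells 3 of 73 members were higher at pH 6.0 (edgeR, adjusted p under 0.05 over all tested genes), against 24.7% of all tested genes. In the same cells 5 members were lower, against 36.6% of all tested genes. The members' median log2 fold change was 0.05, with -0.12 over all tested genes. A change within 0.5 (log2) in either direction was found for 71 of 73 members, or 97.3%, and for 48.5% of all tested genes. In NRK-49F cells 1 member was higher, against 14.5% of all tested genes, and 0 were lower, against 14.4%. At an unadjusted p under 0.05 the latter number was 2, and DESeq2 called 0 as well. The members' median was 0.18 there, with 68 of 73 above 0, and 0.00 over all tested genes. The median standard error of the members was 0.16 in NRK-52E cells, with 0.15 over all tested genes. It was 0.13 for the 136 other genes with a level of at least 680 FPM (the members' lower quartile). Small changes of single members could go uncalled, and the part this plays in the counts was not tested. In this bulk RNA a shift in every cell and a shift in part of the cells cannot be told apart.

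**Figure D3:**
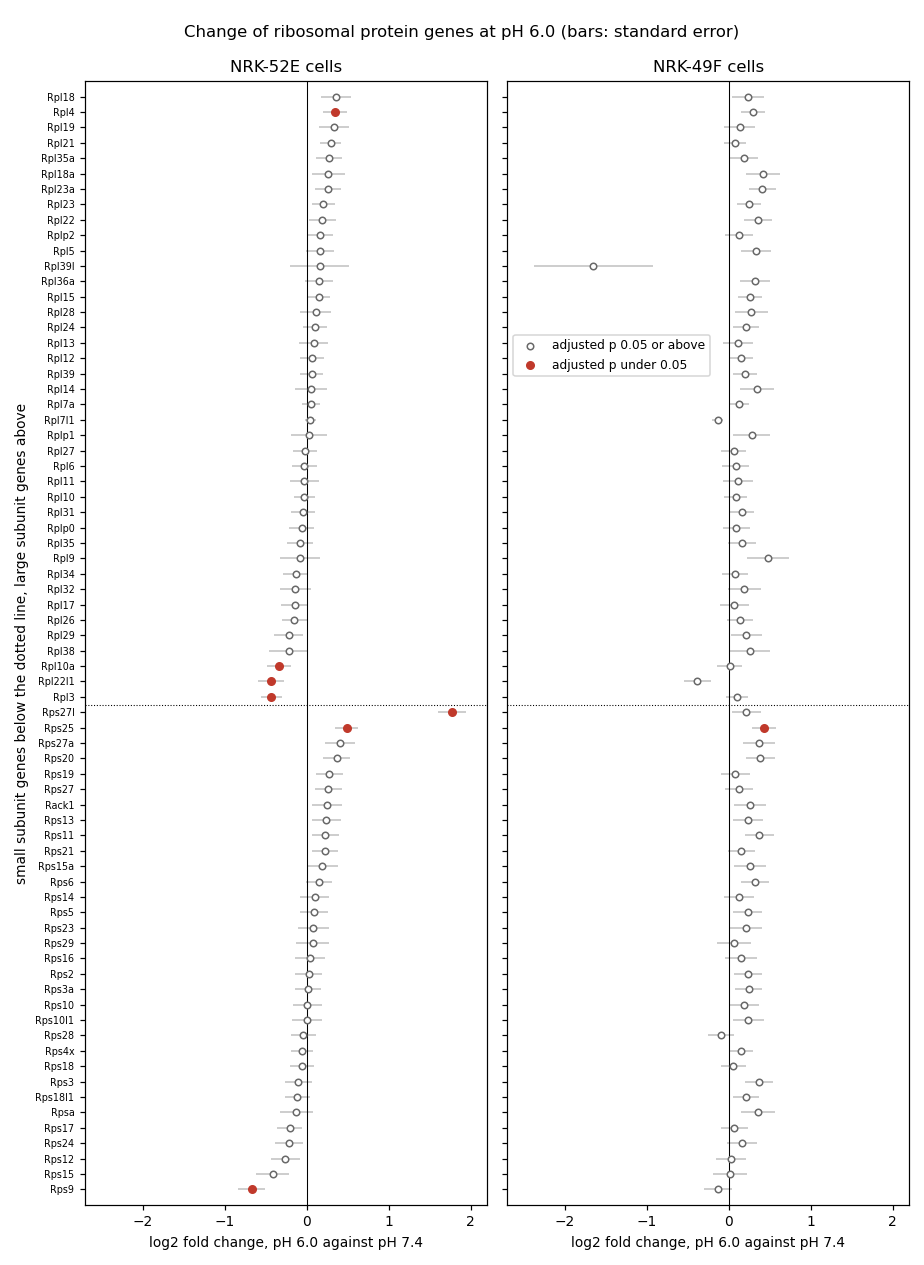
Log2 fold change at pH 6.0 against pH 7.4 (x axis) of 72 members with its standard error, in NRK-52E cells (left) and NRK-49F cells (right), sorted by the NRK-52E value within each subunit; filled red points have an adjusted p under 0.05. Rps27l stands apart at 1.77 in NRK-52E cells, and Rpl39l at -1.65 in NRK-49F cells has a wide error and is near 0 in level.

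These counts turned on single libraries. Without A035, 13 members were higher in NRK-52E cells (24.9% of all tested genes) and 2 were lower (36.7%), and the median was 0.18. The members lower in that fit were Rps9 and Rpl3. Within sample group 1, 39 members were higher (29.5% of all tested genes) and 1 was lower (31.8%), with a median of 0.29. Within sample group 3, which holds A035, 2 were higher (29%) and 4 were lower (31.6%), with a median of -0.00. Leaving out A024, A042 or A052 gave 6, 6 and 5 higher members in NRK-52E cells, and leaving out A024, A036 or A037 gave 3 lower members each. In NRK-49F cells the median fell to 0.01 without A042, with 41 of 73 members above 0, and the higher members numbered 0 without A040, A042, A051 or A055, 2 without A035 or A043 and 6 without A052 or A056. The lower members numbered 1 without A040, A042, A052 or A053. Apart from NRK-52E cells without A035, no share of all tested genes is given for fits without a single library. The counts of those fits show only how the calls moved. The sample groups 4 and 6 alone gave 0 calls, with medians of 0.33 and 0.04, and sample group 4 has 2 libraries at pH 6.0. Of all tested genes, 4.73% were higher and 3.97% lower in sample group 4, with 7.88% and 8.09% in sample group 6. Whether the set as a whole shifted thus depended on the libraries compared.

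Among the small subunit genes, Rps27l rose the most in NRK-52E cells. Rps27l is a paralog of Rps27 and a known transcriptional target of p53. Its level was 59.8 to 97.6 FPM (median 73.9) at pH 7.4 and 188 to 339 FPM (median 257) at pH 6.0, so the pH values did not overlap. The log2 fold change was 1.77 ± 0.17 (SE, adjusted p = 4.3e-09). In NRK-49F cells it was 123 to 180 FPM (median 144) at pH 7.4, and 263, 133, 173, 176 and 130 FPM in the libraries A042, A043, A054, A055 and A056 at pH 6.0. There the pH values overlapped, at a log2 fold change of 0.22 ± 0.17 (SE, adjusted p = 0.388). The difference between both changes was 1.56 ± 0.24 (SE, adjusted p = 1.7e-05). The rise was 1.71 (log2) in sample group 1 and 1.96 in sample group 3, and 1.86 without A035.

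Rps27 itself, a zinc-finger protein of the small subunit, was 1042 to 1692 FPM (median 1150) at pH 7.4 and 1327 to 1715 FPM (median 1479) at pH 6.0 in NRK-52E cells. Its log2 fold change of 0.27 ± 0.17 (SE) had an adjusted p of 0.167. In the fibroblast line it had a log2 fold change of 0.13 ± 0.17 (SE, adjusted p = 0.635). The partners thus stood apart in NRK-52E cells in their values, with the difference between partners not tested.

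Rps25, a small subunit protein known for its role in initiation on some viral internal ribosome entry sites, was the member that rose in both lines. In NRK-52E cells it was 542 to 810 FPM (median 584) at pH 7.4 and 759 to 974 FPM (median 869) at pH 6.0, and the overlap came from A035 at pH 7.4. The log2 fold change was 0.49 ± 0.14 (SE, adjusted p = 0.003). In NRK-49F cells it was 559 to 779 FPM (median 672) at pH 7.4 and 1274, 735, 920, 962 and 644 FPM in the 5 libraries at pH 6.0, named in the same order as above. Here the log2 fold change was 0.43 ± 0.14 (SE, adjusted p = 0.024), and the call was lost without A040, A042, A051 or A055. The difference between the lines was 0.06 ± 0.20 (SE, adjusted p = 0.846).

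Rps9, a protein of the small subunit body, fell in NRK-52E cells. It was 964 to 1679 FPM (median 1129) at pH 7.4 and 642 to 859 FPM (median 722) at pH 6.0, with no overlap. The log2 fold change was -0.67 ± 0.16 (SE, adjusted p = 0.001), and -0.54 without A035 (adjusted p = 0.004). In NRK-49F cells the levels were 1585 to 2721 FPM (median 1915) at pH 7.4 and 2570, 1402, 1806, 2142 and 1309 FPM at pH 6.0, which overlapped, with a log2 fold change of -0.13 ± 0.17 (SE, adjusted p = 0.604).

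Among the large subunit genes, Rpl4, a core protein that lines the exit tunnel, rose in NRK-52E cells. It was 1352 to 2066 FPM (median 1484) at pH 7.4 and 1724 to 2263 FPM (median 1964) at pH 6.0, with an overlap from A035. The log2 fold change was 0.35 ± 0.14 (SE, adjusted p = 0.037). The call was lost when any of 8 single NRK-52E libraries was left out (A021, A022, A023, A025, A026, A033, A034 or A038), and it was 0.44 without A035 (adjusted p = 0.008). In sample group 3 it was 0.31 (adjusted p = 0.138).

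Rpl3, a large subunit protein at the peptidyl transferase centre, was 2395 to 3275 FPM (median 2556) at pH 7.4 and 1658 to 2450 FPM (median 1940) at pH 6.0 in NRK-52E cells, where the highest library at pH 6.0 exceeded the lowest at pH 7.4. It fell by 0.43 ± 0.13 (log2, SE, adjusted p = 0.005). The value was -0.20 in sample group 1 (adjusted p = 0.109), where the call was lost, and -0.51 in sample group 3 (adjusted p = 0.020). In NRK-49F cells the log2 fold change was 0.10 ± 0.13 (SE, adjusted p = 0.631). The difference between both was -0.53 ± 0.18 (SE, adjusted p = 0.024), a call that was lost without A042. By this test of the difference, 1 of 73 members (Rps27l) had the higher change in NRK-52E cells, against 16.8% of all tested genes, and 2, of which Rpl3 is reported here, had the lower change there, against 24.7%.

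Rpl22l1, the paralog of Rpl22, fell in NRK-52E cells. It was 102 to 187 FPM (median 128) at pH 7.4 and 81.0 to 111 FPM (median 103) at pH 6.0. The log2 fold change was -0.43 ± 0.16 (SE, adjusted p = 0.020) and was no longer called without A024 or without A035. It was -0.22 in sample group 1 (adjusted p = 0.180) and -0.47 in sample group 3 (adjusted p = 0.035). In NRK-49F cells it was 164 to 271 FPM (median 207) at pH 7.4 and 224, 125, 161, 184 and 124 FPM at pH 6.0, with a log2 fold change of -0.39 ± 0.16 (SE, adjusted p = 0.081), which passed the threshold without A040 or without A042. Its partner Rpl22 had log2 fold changes of 0.19 ± 0.16 (SE, adjusted p = 0.318) and 0.35 ± 0.17 (SE, adjusted p = 0.128) in the 2 lines. Rpl10a, also lower in NRK-52E cells and named here after its value was seen, was at -0.34 ± 0.15 (log2, SE, adjusted p = 0.048), and DESeq2 gave it an adjusted p of 0.065. Neither sample group alone gave a call for Rpl10a, at -0.10 (adjusted p = 0.431) and -0.41 (adjusted p = 0.056).

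**Figure D4:**
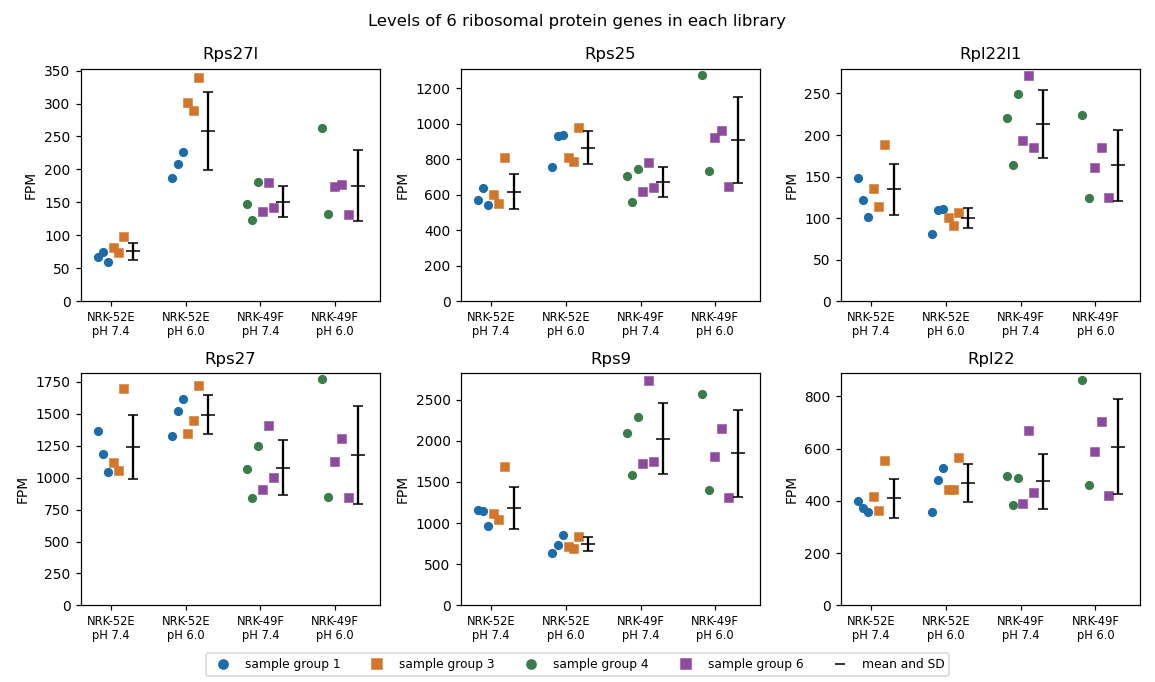
Levels in FPM (y axis, from 0) of Rps27l, Rps25, Rpl22l1, Rps27, Rps9 and Rpl22 in every library by line and pH; colour and shape give the sample group and the bar the mean with its SD. Rps27l is separate between the pH values in NRK-52E cells (97.6 FPM at most against 188 FPM at least) and Rps9 is lower there (859 FPM at most against 964 FPM at least).

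Because the members rose and fell together from library to library, each member was also compared with the set itself. For this the summed counts of the 73 members took the place of the library size, so that a log2 fold change says how the part of a member in the members' counts changed. This comparison was added after the values had been seen, and the parts sum to a whole, so a rise of some members goes with a fall of others. The median standard error of the members fell from 0.16 to 0.06 on that scale. By its construction the scale takes out the variation that the members share and passes it on to all other genes. The shares of all tested genes on this scale, given here and below, are therefore no like background for the members. No excess or lack of calls among the members was read from them. In NRK-52E cells 22 members were higher at pH 6.0 within the set (16.5% of all tested genes on this scale) and 17 were lower (32%). In NRK-49F cells 6 were higher (4.29%) and 5 were lower (10.4%). With each library left out in turn, the numbers in NRK-52E cells were 18 to 22 higher and 15 to 18 lower, and 29 of the 39 calls held in every such fit. In NRK-49F cells they were 3 to 7 higher and 3 to 6 lower, and 5 of 11 calls held in every fit.

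The sample groups of NRK-52E cells share no library, and each was fitted alone on this scale. Sample group 1 gave 12 higher members (12.1% of all tested genes) and 10 lower (37.5%), and sample group 3 gave 9 higher (15.9%) and 8 lower (22.2%). In both, with the same direction, 14 members were called, which is 63.6% of the 22 calls in group 1 and 82.4% of the 17 calls in group 3. These are 14 of 73 members. The share was 30.3% of all genes tested in both sample groups on this scale, which is no like background for the members. Higher in both were Rps27l, Rps25, Rps27a, Rpl18, Rps20, Rpl4, Rpl19 and Rps19. Among those lower in both were Rps9, Rpl3, Rpl22l1, Rps15 and Rpl10a. The sample groups 4 and 6 of NRK-49F cells, fitted alone, gave 0 calls.

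Rps9 had the largest fall of the members in NRK-52E cells on this scale. It made up 1.60% to 1.71% of the members' counts at pH 7.4 and 0.949% to 1.03% at pH 6.0 in NRK-52E cells, and A035 lay within the range of its condition at 1.65%. In NRK-49F cells it made up 2.21% to 2.30% at pH 7.4, and 1.71%, 1.80%, 1.83%, 1.89% and 1.76% in the 5 libraries at pH 6.0. The pH values did not overlap in either line. The log2 fold changes were -0.71 ± 0.05 (SE, adjusted p = 4.4e-11) in the epithelial line and -0.32 ± 0.05 (SE, adjusted p = 4.6e-05) in NRK-49F cells.

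Rpl22l1 fell within the set in both lines too. Its part was 0.168% to 0.220% at pH 7.4 and 0.129% to 0.146% at pH 6.0 in NRK-52E cells, and 0.228% to 0.249% and 0.149% to 0.167% in the fibroblast line. Neither showed an overlap. The log2 fold changes were -0.47 ± 0.08 (SE, adjusted p = 2.2e-05) and -0.57 ± 0.08 (SE, adjusted p = 2.3e-05). Rpl10a was also lower in both lines, at -0.38 ± 0.05 (SE, adjusted p = 4.1e-06) in NRK-52E and -0.17 ± 0.06 (SE, adjusted p = 0.039) in NRK-49F cells. Its call in NRK-49F cells was lost without A039, A040, A041, A042, A051, A053, A054, A055 or A056. The calls of Rpl22l1 in both lines held with any single library left out.

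Rps25 rose within the set in both lines, from 0.796% to 0.907% of the members' counts at pH 7.4 to 1.11% to 1.204% at pH 6.0 in NRK-52E cells, and from 0.656% to 0.820% to 0.849% to 0.944% in NRK-49F cells. Neither line showed an overlap. The log2 fold changes were 0.44 ± 0.06 (SE, adjusted p = 4.0e-06) and 0.23 ± 0.06 (SE, adjusted p = 0.019). Rps20, a small subunit head protein, rose in both lines as well, by 0.32 ± 0.05 (log2, SE, adjusted p = 1.9e-05) and 0.20 ± 0.05 (SE, adjusted p = 0.014). In NRK-49F cells the call of Rps25 was lost without A043 or A054, and that of Rps20 without A055.

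Rpl3 and Rps15 fell within the set in NRK-52E cells. Rpl3 went from 3.22% to 4.08% of the members' counts at pH 7.4 to 2.44% to 2.95% at pH 6.0, and its lowest library at pH 7.4 was A035. Rps15, a small subunit protein near the decoding site, went from 1.43% to 1.64% to 1.03% to 1.17%. Neither overlapped between the pH values, and their log2 fold changes were -0.49 ± 0.07 and -0.44 ± 0.06 (SE, adjusted p = 6.4e-06 and 3.8e-06). In NRK-49F cells the values were -0.08 ± 0.08 and -0.18 ± 0.07 (SE), with adjusted p of 0.535 and 0.074. Rps27l had 1.73 ± 0.12 (SE, adjusted p = 1.9e-10) in NRK-52E cells and 0.01 ± 0.13 (SE, adjusted p = 0.976) in NRK-49F cells.

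**Figure D5:**
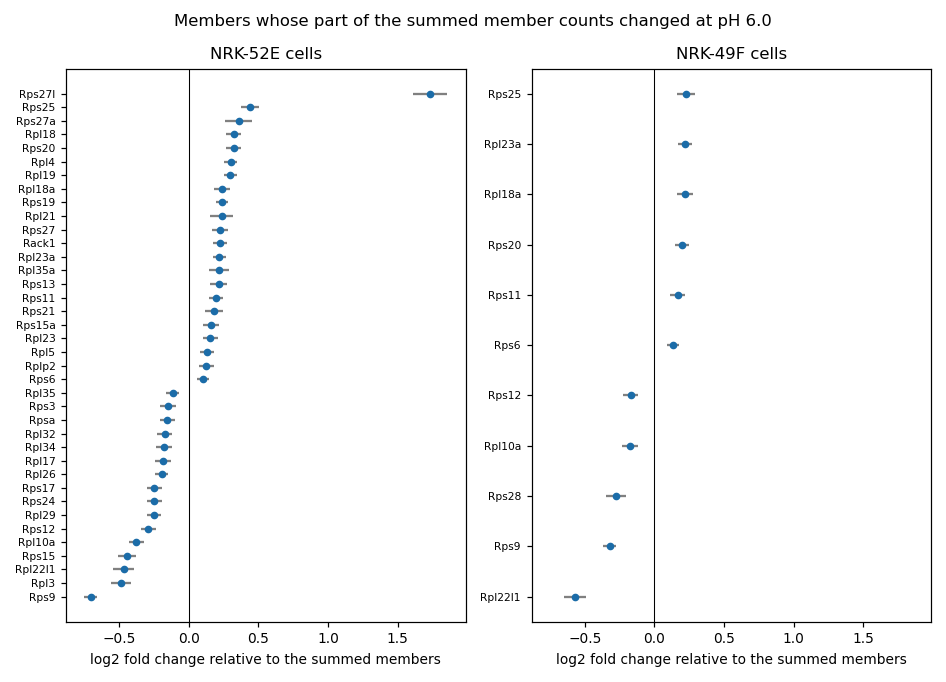
Log2 fold change at pH 6.0 (x axis) relative to the summed member counts, with its standard error, for members with an adjusted p under 0.05: 22 higher and 17 lower, of which 1 is not drawn, in NRK-52E cells (left), 6 and 5 in NRK-49F cells (right). Rps27l is highest at 1.73 and Rps9 lowest at -0.71 in NRK-52E cells, and Rpl22l1 is lowest at -0.57 in NRK-49F cells.

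The balance of both subunits stayed narrow. Small subunit genes held 45.8% to 47.3% of the members' counts over the NRK-52E libraries and 44.0% to 45.7% over the NRK-49F libraries. Within each line the pH values overlapped, with means of 46.3% and 46.5% for NRK-52E and 44.7% and 44.9% for NRK-49F libraries.

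The stalk proteins, the scaffold proteins and the members with roles in signalling did not pass the threshold at pH 6.0 in either line on the TMM scale. Rplp0, Rplp1 and Rplp2, which form the stalk that recruits elongation factors, had log2 fold changes of -0.06, 0.03 and 0.16 in NRK-52E cells, against 0.09, 0.28 and 0.12 in the fibroblast line. Rpsa, the small subunit protein also known as the laminin receptor, had -0.12 and 0.36, and Rack1 0.25 and 0.26. Rps6, the target of the S6 kinases, had 0.15 and 0.32. Rpl5 and Rpl11, which with 5S RNA bind MDM2 and so bear on p53, had 0.16 and -0.03 in NRK-52E cells, against 0.33 and 0.12 in the fibroblast line. The lowest adjusted p among these 8 genes was 0.156, for Rps6 in the fibroblast line. Without A035, Rack1 passed the threshold in NRK-52E cells at 0.41 (adjusted p = 0.039). Within sample group 1 of NRK-52E cells 5 of the 8 passed, Rack1 at 0.57 (adjusted p = 0.0007), Rpl5 at 0.47 (0.004), Rps6 at 0.39 (0.007), Rplp2 at 0.36 (0.012) and Rpl11 at 0.39 (0.005), the last opposite in sign to the value over all libraries. In sample group 3 the lowest adjusted p of the 8 was 0.237, for Rpl11 at -0.28.

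Within the set 5 of these 8 genes passed the threshold in NRK-52E cells, with small changes. On this scale 16.5% of all tested genes were higher and 32% were lower, which is no like background for these members. Rack1 was at 0.22 (log2, adjusted p = 0.0007), Rpsa at -0.15 (0.027), Rpl5 at 0.13 (0.032), Rps6 at 0.10 (0.048) and Rplp2 at 0.13 (0.049). In the fibroblast line Rps6 passed as well, at 0.13 (adjusted p = 0.047). Of these calls only that of Rack1 held in every fit with a single library left out. Those of Rpsa, Rpl5, Rplp2 and, in both lines, Rps6 were lost in some of these fits.

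The lines were also compared at pH 7.4. At this pH 25 of 73 members (34.2%) were lower in NRK-52E than in NRK-49F cells, close to the 33.9% of all tested genes. Only 2 members were higher, against 35% of all tested genes. One of the higher members, Rpl39l, entered the set through its level in NRK-52E cells alone. The members' median log2 difference (NRK-52E minus NRK-49F) was -0.30, with 0.02 over all tested genes. Without A035 the lower members numbered 47, against 34.6% of all tested genes in that fit. The most negative called members were Rplp2 at -1.56 ± 0.17 (SE, adjusted p = 9.2e-09), Rpl19 at -1.01 ± 0.18 (SE, adjusted p = 3.6e-05) and Rps27l at -0.999 ± 0.17 (SE, adjusted p = 1.2e-05). Rplp2 was 432 to 787 FPM (median 515) in NRK-52E and 1246 to 2139 FPM (median 1548) in NRK-49F cells. Rpl19, a large subunit protein at the bridge between the subunits, was 1411 to 2538 FPM (median 1616) against 2630 to 4785 FPM (median 3174). The lines did not overlap for either gene, nor for Rps27l (59.8 to 97.6 against 123 to 180 FPM).

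Rpl39l, a paralog of Rpl39 known from the testis, was near 0 in NRK-49F cells. It was 74.7 to 135 FPM (median 87.1) at pH 7.4 and 93.7 to 118 FPM (median 102) at pH 6.0 in NRK-52E cells, and 0 to 4.62 FPM (median 0.358) at pH 7.4 in NRK-49F cells. The highest value there was that of A051, and the other 5 libraries reached at most 1.08 FPM. At pH 6.0 the NRK-49F values were 0.713, 0.305, 0.519, 0.253 and 0.056 FPM. It entered the set through its level in NRK-52E cells, so its difference between the lines is given as a description, with no test. The change at pH 6.0 in NRK-49F cells was -1.65 ± 0.72 (SE, adjusted p = 0.092), and -0.24 without A051. Rpl39 was present in both lines, at 237 to 388 FPM and 277 to 401 FPM at pH 7.4. The other called higher member was Rpl7l1, a relative of Rpl7, at 0.23 ± 0.07 (SE, adjusted p = 0.005), with 142 to 172 FPM against 121 to 146 FPM.

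Some members are copies whose reads cannot be told apart with certainty. Reads that map to several places were counted for each, so reads of a gene and of its near-identical copies or pseudogenes can enter several rows. Rps10l1 was 85.6 to 150 FPM at pH 7.4 in NRK-52E cells and its log2 fold changes were 0.00 and 0.24 in the lines, next to 0.01 and 0.19 for Rps10. Rps18l1 had -0.12 and 0.21, next to -0.06 and 0.05 for Rps18. None of these passed the threshold for pH. The 5 members Rpl9, Rpl38, Rps4x, Rpl35a and Rpl21 lie on another chromosome in the count table than the gene of that symbol in RefSeq, and rows with a like name lie elsewhere, so their values were taken as uncertain. For Rpl9, Rpl38, Rps4x and Rpl21 a row with a suffix lies on the RefSeq chromosome, at 1315, 340, 1577 and 1075 CPM. Such rows do not match the rule, so they are not in the summed counts of the members. Rpl9 was at -0.08 and 0.48 (log2), and Rpl38 at -0.22 and 0.26 in NRK-52E and NRK-49F cells, with no call for pH. The 8 calls in NRK-52E cells stood among the other 68 members.

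Genes that work beside the ribosomal proteins were counted from fixed lists. Of the 2 tested genes that encode a ribosomal protein fused to a ubiquitin-like part, Rps27a and Fau, 0 passed the threshold at pH 6.0 in either line. Fau was at 0.38 ± 0.21 (SE) in NRK-52E and 0.12 ± 0.22 (SE) in NRK-49F cells. Of 12 elongation factors and other TOP mRNAs, 3 rose and 3 fell in NRK-52E cells, and 4 rose and 0 fell in the fibroblast line. For these and the lists that follow, 24.7% of all tested genes rose and 36.6% fell in the epithelial line, with 14.5% and 14.4% in the fibroblast line. The list counts were not repeated with single libraries left out, so their dependence on A035 or A042 was not tested. Pabpc1, the poly(A)-binding protein and a TOP mRNA, rose by 0.57 ± 0.07 (log2, SE, adjusted p = 1.6e-07) and 0.47 ± 0.07 in the 2 lines, and Nap1l1, a histone chaperone, by 0.72 ± 0.12 and 0.71 ± 0.13. Vim, the intermediate filament vimentin, had the largest fall of the list in NRK-52E cells at -0.93 ± 0.12. Eef2, the translocation factor, and Tpt1 were at 0.09 and 0.06 in NRK-52E cells and did not pass. The row named Eef1a1 had 1.25 FPM on average at pH 7.4 in NRK-52E cells and was not read further.

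Of 26 initiation factors, 12 rose and 1 fell in NRK-52E cells, with 2 and 1 in the fibroblast line. Eif1, which checks the start codon, had the largest rise at 0.92 ± 0.15 (SE, adjusted p = 1.5e-05), and Eif3l, an eIF3 subunit, the fall at -0.52 ± 0.12 (SE). The list's median in NRK-52E cells was 0.27, against -0.12 over all tested genes. In NRK-49F cells Eif4a2 rose by 0.37 ± 0.08 (SE) and Eif4g1 was at -0.30 ± 0.11 (SE).

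Of 26 regulators of the translation of TOP mRNAs, which include mTORC1 subunits and its inhibitors, 12 rose and 8 fell in NRK-52E cells, with 6 and 3 in the fibroblast line. Rps6kb2, an S6 kinase, rose by 1.02 ± 0.08 (SE, adjusted p = 1.5e-10) and Mlst8, an mTOR complex subunit, was at -1.33 ± 0.15 (SE, adjusted p = 7.5e-08) in NRK-52E cells. In the fibroblast line Rptor, the mTORC1 scaffold, rose by 0.63 ± 0.08 (SE) and Deptor, an mTOR inhibitor, was at -0.73 ± 0.20 (SE).

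Of 70 mitochondrial ribosomal protein genes, 20 rose and 14 fell in NRK-52E cells, while 14 rose and 0 fell in the fibroblast line, with medians of 0.07 and 0.25. Mrps16, of the small mitochondrial subunit, rose by 1.14 ± 0.21 (SE) and Mrpl19, of the large, was at -0.71 ± 0.16 (SE) in NRK-52E cells. In the fibroblast line Mrps6 rose by 0.82 ± 0.19 (SE). Compared with the cytosolic set, 34 of 70 against 8 of 73 genes passed in NRK-52E cells, and both shares lie below the 61.2% of all tested genes.

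As for the labels of the lines, the markers separated them in part. Of 7 tested fibroblast markers, 6 were lower and 1 was higher in NRK-52E than in NRK-49F cells at pH 7.4. Col1a1, Col1a2, Pdgfra and Lum were among the lower ones, and A021 had the most Pdgfra (5.20 CPM) and Col1a2 (58.1 CPM) among the NRK-52E libraries. The higher one was Col3a1, at 5145 to 8587 CPM in NRK-52E and 1012 to 1395 CPM in NRK-49F cells. Thy1 was at 0 in all NRK-52E libraries and at most 0.164 CPM in NRK-49F libraries. Cdh1, Epcam, Krt18 and Cldn4, which define many epithelia, were at or near 0 CPM in all libraries of both lines, and Krt8 and Tjp1 were expressed in both. Krt8, at 471 to 637 CPM in NRK-52E and 656 to 1058 CPM in NRK-49F cells at pH 7.4, was thus higher in the fibroblast line, and Tjp1, at 159 to 316 CPM and 96.0 to 173 CPM, was higher in the epithelial line. At pH 6.0 the tested fibroblast markers that were lower numbered 6 of 7 in NRK-52E and 3 of 7 in NRK-49F libraries. The summed level of the list was 4897 to 8102 FPM at pH 7.4 and 1830 to 3110 FPM at pH 6.0 in NRK-52E cells, where Col3a1 made up most of it, and their part in the changes of the members was not tested. Total counts ranged from 16412564 to 34250535 per library, which held 1165419 to 3566901 counts of the members.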

How the data were processed

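Poly(A) RNA of rat NRK-52E and NRK-49F cells was sequenced from both ends. The deposited table holds raw counts per gene, which the authors made with HISAT2 2.1.0 and featureCounts on Ensembl exons, multi-mapping reads included. The strand setting is not given in the sources used here, and the genome build is rn7 in the study's methods and rn6 in the submitters' processing notes, so no coordinates of the table are given. Of 36 sample columns, 23 matched a label and 13 were not used. The labels give the growth medium less bicarbonate than the study's methods do.

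Counts were fitted in R 4.3.3 with edgeR 4.0.16 (filterByExpr with a minimum count of 10 and a total of 15, TMM scaling, quasi-likelihood test) in a single model of 4 conditions with no covariate. Genes were called at an adjusted p (Benjamini-Hochberg, over all tested genes) under 0.05. The standard error was the absolute log2 fold change divided by the root of the F statistic. FPM came from edgeR's cpm function on TMM-scaled libraries. DESeq2 1.42.0 was an alternative. The main fit was tested on simulated counts with known changes in NRK-52E cells at pH 6.0. It called 52 of 100 genes changed 1.5-fold and 87 of 100 changed 3-fold, with 11 other calls. The fits within the set and within sample groups were not simulated. All 55 pairs of libraries within a condition differed by more than sampling noise. Figures were drawn with matplotlib.

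Members and lists were chosen with earlier results of these data known. Named members were, in each line, the 4 with the largest rise and fall among those called, the 3 each way with the largest differences between the changes and between the lines, pairs of paralogs, Rplp0, Rplp1, Rplp2, Rpsa, Rack1, Rps6, Rpl5 and Rpl11, and the genes next to 20 CPM. In the lists, Fau, Eef1a1, Eef2, Pabpc1, Tpt1 and the largest rise and fall were named. For the fits within the set, the summed counts of the members replaced the library size, and members named there were chosen after their values were seen. Sequences and start sites came from RefSeq (GRCr8), matched by symbol for 72 of 73 members. Of the members, 1 was tested with the others but is not reported here.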

Additional observations from a re-analysis of the deposited data

Results flagged for a closer look

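Of 108 sets of values (26 named members and the members' share of counts in the 4 conditions), 23 held a library that stood apart by Dixon's test, and chance gives about 1 in 20. In 21 of the 23 it was A035, the NRK-52E library at pH 7.4 that also had the highest share of member counts, at 9.97% against 6.73% to 7.61% in the other 5. Since the members move together between libraries, these are not 21 separate findings.

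In A035 the small subunit members and their partners that stood apart were Rps25 at 810 FPM, Rps9 at 1679 FPM, Rps10 at 783 FPM, Rps10l1 at 150 FPM, Rps18l1 at 238 FPM, Rpsa at 3180 FPM, Rack1 at 2473 FPM and Rps6 at 2668 FPM. Among the large subunit members Rpl4 was at 2066 FPM, Rplp0 at 4478 FPM, Rplp1 at 3462 FPM, Rplp2 at 787 FPM, Rpl19 at 2538 FPM, Rpl22 at 553 FPM, Rpl39 at 388 FPM, Rpl39l at 135 FPM, Rpl5 at 2409 FPM, Rpl11 at 1371 FPM, Rpl38 at 30.6 FPM and Rpl9 at 85.2 FPM. Each of these was the highest value of its condition.

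In the other libraries Rpl39 stood apart in A038 (NRK-52E, pH 6.0) at 376 FPM, against 249 to 288 FPM in the other 5 libraries. Rpl39l stood apart in A051 (NRK-49F, pH 7.4) at 4.62 FPM, against at most 1.08 FPM.

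In 2 members the change at pH 6.0 differed between the lines by the test of the difference itself (NRK-52E minus NRK-49F). It was 1.56 (log2) for Rps27l and -0.53 for Rpl3.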

How the results depend on the processing

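Calls of members moved with the scaling and with single libraries, and the cause was not tested. No paired analysis was possible because the replicate codes are not shared between conditions. With the sample group as a block 3 members rose and 4 fell in NRK-52E cells, with 1 and 0 in the fibroblast line. In NRK-52E cells the higher members numbered 6 with RLE scaling, 8 by library size alone, 6 with DESeq2, 14 with the line fitted alone, 39 in sample group 1 and 22 within the set (12 in sample group 1, 9 in sample group 3). The lower members numbered 1 against a fold of 1.2, 1 in sample group 1 and 17 within the set (10 and 8). In NRK-49F cells the higher members numbered 2 by library size alone, 2 with DESeq2, 0 against a fold of 1.2, 0 in sample groups 4 and 6 on either scale and 6 within the set, and the lower members 2 by library size alone and 5 within the set. For the difference of the changes, the higher members numbered 2 with DESeq2 and 6 within the set (9.8% of all tested genes on that scale). The lower members numbered 1 without the filter, 0 against a fold of 1.2 and 7 within the set (13.3%). Between the lines at pH 7.4, the higher members numbered 7 by library size alone, 1 with DESeq2, 1 by both tools and 1 against a fold of 1.2. Within the set 19 were higher (42.1% of all tested genes on that scale) and 18 were lower (19.6%). No such share is given for RLE scaling, library size alone, DESeq2, a fold of 1.2 or the line fitted alone. Nor is it given for the sample group as a block, both tools, no filter or, other than for A035, single libraries left out. The counts of all these fits show only how the calls moved. Leaving out each library gave 2 to 13 higher and 2 to 5 lower members in NRK-52E cells, and 0 to 6 and 0 to 1 in the fibroblast line. For the difference it gave 1 to 2 and 0 to 4, and between the lines 2 higher in each fit and 21 to 47 lower. The extremes came from A035 (13 higher and 2 lower members in NRK-52E cells, 47 lower between the lines), A052 and A056 (6 in NRK-49F cells).

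Where a named member was called in the main or the alternative fit, the sign turned in 4 cases. Within the set, by the construction of that scale, it turned for the lines at pH 7.4. There Rps25 was at 0.19, Rpl3 at 0.32 and Rps6 at 0.14. The other case was Rpl11 at pH 6.0 in sample group 1 of NRK-52E cells, at 0.39 (the cause was not tested). Of the other values of named members under alternatives, 2839 kept their side of the threshold, 76 passed it and 35 lost it. The 2839 include values without a call whose sign turned, such as Rpsa for pH in NRK-52E cells, at 0.05 without A035.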
